A study of Mus musculus with 21 samples.

Results

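The comparison described here sets brain RNA of endothelial Pdcd10 knockout mice kept for 7 days at 12% oxygen against that of knockouts kept at 21% oxygen. Its 11 libraries, 7 hypoxic and 4 normoxic, were taken by their labels and by the columns of the deposited count table that carry those labels, out of 19 libraries with counts and 21 labelled samples. All 19854 genes that passed a filter on low counts were tested. The question was which differences between knockouts and controls were damped, kept or added in hypoxia, and whether the answer held both for knockout hypoxia 1 to 3 and for knockout hypoxia 4 to 7.

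Pdcd10, also called CCM3, encodes a small adaptor protein of the cerebral cavernous malformation complex. Its loss in brain endothelium gives clusters of dilated, leaky capillaries, and astrocytes near such lesions become reactive. Low oxygen stabilises hypoxia-inducible factors, transcription factors that raise glycolytic enzymes and vascular growth factors such as Vegfa. Astrocytes are known to meet blood vessels with end-feet, to share small molecules through connexin channels and to make much of the brain's cholesterol.

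The knockouts carried Slco1c1-iCreERT2;Pdcd10fl/fl;Aldh1l1-EGFP/Rpl10a, so a tamoxifen-inducible Cre under the Slco1c1 promoter, which is active in brain endothelium, deleted floxed Pdcd10. The ribosomal tag Aldh1l1-EGFP/Rpl10a, driven by an astrocyte promoter, was carried by all groups. The controls carried Pdcd10fl/fl; Aldh1l1-EGFP/Rpl10a and no Cre by their genotype label. The design text gives 50 μg of 4-hydroxy-tamoxifen on postnatal day 1 for the knockouts, names Cre carriers without an injection as further controls, and does not say which samples these were, so genotype and injection cannot be told apart. Mice were at postnatal day 57 and all samples carried the tag male. The groups were knockout hypoxia (12% oxygen for 7 days, n = 7), knockout normoxia (21% oxygen, n = 4), control hypoxia (n = 4, replicates 3 to 6) and control normoxia (n = 4). Replicates 1 and 2 of control hypoxia were not analysed here. Nothing in the labels ties each library to an animal of its own. The p-values thus rest on library-to-library spread, part of which may be technical.

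Totals in the knockout libraries ran between 45399320 and 65261791 counts. Astrocyte markers summed to 37072 to 54946 CPM (the unit of level used throughout, counts scaled to library size with TMM factors) in knockout hypoxia and to 51399 to 63027 CPM in knockout normoxia, and all 12 markers were detected and tested. The 2 sets of hypoxic knockouts stood apart. Mitochondrially encoded genes held 0.0442 to 0.0685% of counts in knockout hypoxia 1 to 3, 0.00303 to 0.0058% in knockout hypoxia 4 to 7, and 0.00549 to 0.0181% in knockout normoxia. Neuronal markers summed to 2645 to 3586 CPM in knockout hypoxia 1 to 3, to 929.9 to 2159 CPM in knockout hypoxia 4 to 7, and to 974 to 2058 CPM in knockout normoxia. Erythroid genes summed to 185 to 256 CPM in knockout hypoxia 1 to 3, to 53.9 to 138 CPM in knockout hypoxia 4 to 7 and to 35.2 to 89.4 CPM in knockout normoxia, against 29.2 to 42.3 CPM in control hypoxia and 25.4 to 37.9 CPM in control normoxia. RNA of 4 Y-linked genes was at or near 0 in knockout hypoxia 6 and 7, in control hypoxia 6 and in control normoxia 3 and 4 (4.83 CPM at most) although all are tagged male, and summed to 98.7 to 132 CPM in all 4 normoxic knockouts. Of the 4 normoxic controls 2 thus differ from the normoxic knockouts in this respect. The main counts are therefore given with all 7 hypoxic knockouts, without 1 to 3 and without 4 to 7; the sets were never tested against each other.

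The targeted gene checked the genotype labels. Pdcd10 (ENSMUSG00000027835) had 6.98, 9.35 and 12.2 CPM (lowest, median and highest of 7) in knockout hypoxia, 7.74, 10.3, 8.04 and 9.15 CPM in knockout normoxia, 24.6, 30.7, 25.0 and 27.9 CPM in control hypoxia and 23.5, 23.2, 19.6 and 21.4 CPM in control normoxia. Every knockout library lay below every control library at either oxygen level, and the knockout groups overlapped. The log2 fold change of hypoxia over normoxia in knockouts was 0.12 ± 0.13 (SE; edgeR adjusted p = 0.597). The source of the RNA that remained in knockouts was not tested.

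Lower RNA in hypoxic than in normoxic knockouts was called for 8 of 20 extracellular matrix, 6 of 13 endothelial, 8 of 16 astrocyte-homeostatic and 12 of 21 cholesterol synthesis genes. Higher RNA was called for 3 of 15 immediate early genes, 4 of 14 p53-response genes and 5 of 34 targets of hypoxia-inducible factors. Of 19854 genes, 2489 were called at an adjusted p under 0.05 (edgeR quasi-likelihood test, Benjamini-Hochberg adjustment), which is 12.5%. They divided into 946 higher (4.76%) and 1543 lower (7.77%). Without knockout hypoxia 1 to 3 there were 1428 calls (7.19%), 671 higher (3.38%) and 757 lower (3.81%), and without knockout hypoxia 4 to 7 there were 4892 (24.6%), 2377 higher (12%) and 2515 lower (12.7%). Calls in 1 direction in all 3 fits numbered 758 (3.82%), of which 252 were higher (1.27%) and 506 lower (2.55%). All 7 hypoxic knockouts lay above all 4 normoxic knockouts in 590 genes (2.97%) and below them in 942 genes (4.74%). Leaving out the 5 libraries with little Y-linked RNA left 1106 calls, 392 higher and 714 lower. Leaving out knockout normoxia 1 left 1488 calls and leaving out knockout normoxia 2 left 1588, and a fit of the 11 knockout libraries alone gave 945. In controls the same oxygen contrast gave 17 calls (0.0856%), 1 higher (0.00504%) and 16 lower (0.0806%), with 1788 genes at an unadjusted p under 0.05. Between the oxygen contrasts of the 2 genotypes 2 genes differed by the interaction term (0.0101%), with 2292 at an unadjusted p under 0.05.

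**Figure D1:**
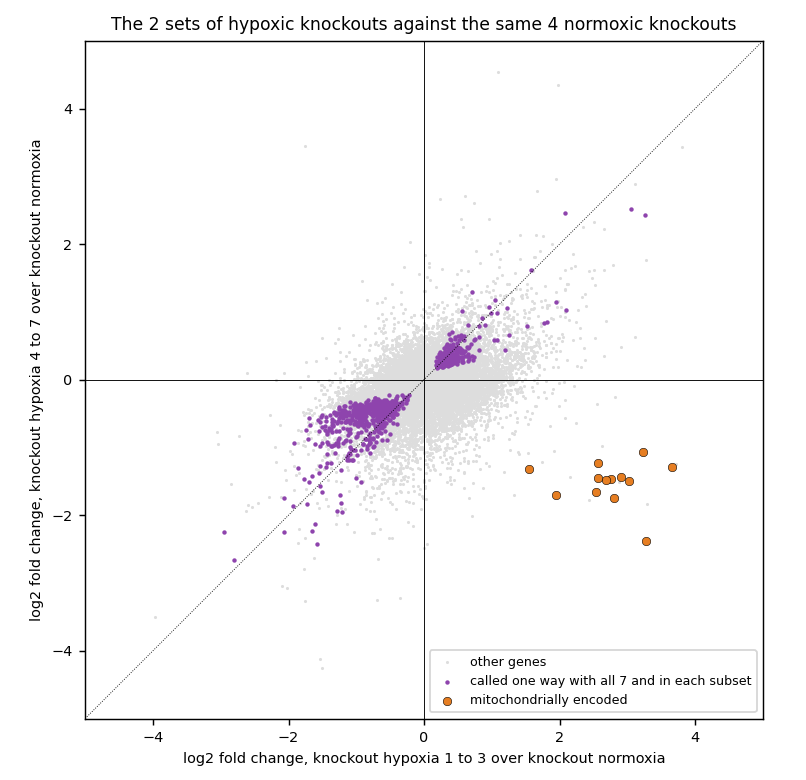
Log2 fold change over knockout normoxia of knockout hypoxia 1 to 3 (x axis, from the fit without 4 to 7) and of knockout hypoxia 4 to 7 (y axis, from the fit without 1 to 3), 1 point a gene, with 12 genes beyond the axes at 5. Both axes use the same 4 normoxic knockouts; the 758 genes called 1 way in all 3 fits are purple and the 13 mitochondrially encoded genes, orange, lie to the right of 0 and below it.

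Knockouts and controls differed in many genes at each oxygen level. In hypoxia 3917 genes were called between knockouts and controls (19.7%), 2057 higher (10.4%) and 1860 lower (9.37%), and in normoxia 2415 (12.2%), 1369 higher (6.9%) and 1046 lower (5.27%). Both calls were made in 1 direction for 1214 genes, 777 higher and 437 lower in knockouts, and these are called kept below. This count was 637 to 800 when 1 of 7 libraries was left out, the libraries being knockout normoxia 1 and 3, control hypoxia 4 and control normoxia 1 to 4. Of the 2415 genes called in normoxia, 347 were also called the opposite way by hypoxia within knockouts: 196 that were higher in normoxic knockouts than in controls fell, and 151 that were lower rose. A further 62 moved along with the knockout difference, 26 upwards and 36 downwards, and 2006 had no call between the oxygen levels in knockouts. Among the 347, 292 had no call between knockouts and controls in hypoxia and 51 were still called there as in normoxia. Without knockout hypoxia 1 to 3 the kept genes numbered 865, the opposite-way calls 381 and those with no call in hypoxia 359, and without 4 to 7 they numbered 2106, 435 and 342. The opposite-way call was made in all 3 fits for 128 of the 347 and 112 of the 292. Without the 5 libraries with little Y-linked RNA, 1481 genes were called between knockouts and controls in hypoxia and 272 in normoxia, and the kept genes numbered 152, the opposite-way calls 35 and those with no call in hypoxia 27. These counts rest on few libraries: the 347 became 160 without knockout normoxia 1, 155 without knockout normoxia 3, and 191, 202 and 192 without control normoxia 1, 2 and 3; the 292 became 133, 137, 145, 161 and 156 without the same libraries. The normoxic knockouts enter both comparisons, so a high value there raises the first and lowers the second, and the counts are descriptions.

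Genes with no call in normoxia but with a call by hypoxia in knockouts numbered 2080. Of these, 734 were called the same way between knockouts and controls in hypoxia, 195 higher and 539 lower, and 279 of the 734 were called in all 3 fits. There were 218 such genes without knockout hypoxia 1 to 3, 2709 without 4 to 7 and 232 without the 5 libraries with little Y-linked RNA. The 734 became 482, 441 and 432 without knockout hypoxia 1, 2 and 3, 399 and 478 without knockout normoxia 2 and 4, and 476, 354 and 487 without control hypoxia 4, 5 and 6. The hypoxic knockouts enter both comparisons of this class, that with normoxic knockouts and that with hypoxic controls. A high or low value there moves both the same way, so these counts too are descriptions. By the stricter rule of a called interaction, a gene called in normoxia counts as damped where the interaction has the opposite sign, also where the difference turns over, and as amplified where it has the same sign. A gene called in hypoxia only counts as added. The 1 gene counted as damped, Slco1c1, turned over: knockouts were lower than controls in normoxia (-0.85 ± 0.23, adjusted p = 0.023) and higher in hypoxia (1.98 ± 0.22, adjusted p = 1.91e-05). None was amplified and 1 was added (Pde3a). Without the 5 libraries with little Y-linked RNA the counts were 1, 0 and 5, without control hypoxia 6 they were 5, 0 and 18, without control normoxia 1 they were 0, 0 and 2, and without knockout hypoxia 4 to 7 they were 179, 126 and 1324.

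**Figure D2:**
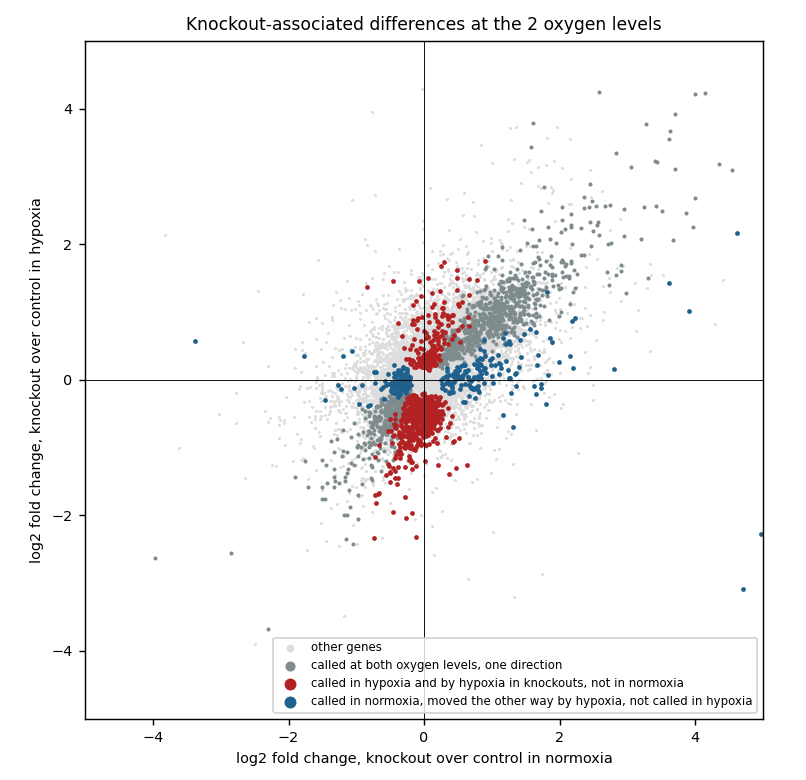
Log2 fold change of knockouts over controls in normoxia (x axis) and in hypoxia (y axis), 1 point a gene, with 10 genes beyond the axes at 5; the axes share no library. The 1214 kept genes (grey) lie along the diagonal. The 292 genes called in normoxia and moved the other way by hypoxia (blue) mostly lie near the horizontal line at 0. The 734 genes called in hypoxia and by hypoxia in knockouts (red) stretch along the vertical line at 0. The classes were set by calls on the plotted differences, so these places follow in large part from the class rules. Blue and red also use the contrast between the knockout groups, which shares libraries with both axes.

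Of 9 matrix genes that were higher in normoxic knockouts than in controls, 6 were called lower in hypoxic knockouts, Col4a1 among them. Col4a1 and Col4a2 encode the main chains of basement membrane collagen and sit head to head, sharing 1 promoter region. Their promoters are shown because the genes moved together. RefSeq gives 250 bases before and 50 after each start on GRCm38.p6 (the counts use GRCm39): chr8:11312777-11313076 on the minus strand for Col4a1 and chr8:11312555-11312854 on the plus strand for Col4a2. Capitals mark the 78 bases that the windows share, read on opposite strands.
Col4a1: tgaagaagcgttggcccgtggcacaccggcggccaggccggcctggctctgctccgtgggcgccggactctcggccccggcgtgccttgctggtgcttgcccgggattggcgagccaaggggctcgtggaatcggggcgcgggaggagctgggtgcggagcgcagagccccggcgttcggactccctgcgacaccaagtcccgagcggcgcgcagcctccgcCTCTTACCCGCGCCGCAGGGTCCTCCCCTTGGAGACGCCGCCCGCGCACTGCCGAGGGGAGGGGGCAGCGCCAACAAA
Col4a2: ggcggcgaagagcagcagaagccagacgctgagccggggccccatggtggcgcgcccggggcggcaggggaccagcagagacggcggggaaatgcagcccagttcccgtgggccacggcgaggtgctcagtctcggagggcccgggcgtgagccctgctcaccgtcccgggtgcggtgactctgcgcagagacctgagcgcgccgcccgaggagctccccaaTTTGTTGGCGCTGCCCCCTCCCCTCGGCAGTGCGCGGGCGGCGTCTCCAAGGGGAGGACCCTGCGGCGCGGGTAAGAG

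Col4a1 had 11.3, 12.6 and 16.9 CPM in knockout hypoxia against 66.7, 18.1, 49.0 and 23.2 CPM in knockout normoxia, and 7.78, 8.29, 10.6 and 7.60 CPM in control hypoxia against 8.44, 12.0, 10.9 and 11.9 CPM in control normoxia. All hypoxic knockouts lay below all normoxic knockouts and above all hypoxic controls; the normoxic knockouts spread widely, with replicates 1 and 3 highest. Its log2 fold change by hypoxia in knockouts was -1.58 ± 0.24 (edgeR adjusted p = 0.0017), while knockouts over controls gave 0.61 ± 0.26 in hypoxia (adjusted p = 0.103) and 1.86 ± 0.29 in normoxia (adjusted p = 0.000914). Col4a2 had 8.83, 11.2 and 18 CPM in knockout hypoxia and 54.1, 15.8, 37.5 and 16.0 CPM in knockout normoxia, and its groups overlapped through knockout hypoxia 6. Its change was -1.39 ± 0.27 (adjusted p = 0.00525). Fn1, which encodes the adhesive glycoprotein fibronectin, had 16.7, 30.8 and 35.4 CPM in knockout hypoxia against 172, 45.7, 125 and 53.1 CPM in knockout normoxia, and 24.0, 19.8, 34.4 and 11.9 CPM in control hypoxia against 8.91, 24.8, 24.5 and 30.9 CPM in control normoxia. Hypoxic knockouts lay in or near the control range, and every normoxic knockout lay above it. The change by hypoxia was -1.79 ± 0.35 (adjusted p = 0.00579); knockouts over controls gave 0.34 ± 0.37 in hypoxia (adjusted p = 0.544) and 2.15 ± 0.43 in normoxia (adjusted p = 0.0045). In RNA pooled from many cells, fewer cells of a type and less RNA per cell cannot be told apart. Whether brain tissue RNA or astrocyte mRNA from tagged ribosomes was counted is not settled here, so these need not be tissue levels.

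Of 20 matrix genes tested, 8 fell by hypoxia in knockouts and none rose, with a median log2 fold change of -0.64 against 0.02 over all genes. Over all genes 7.77% were called lower. The count was 5 without knockout hypoxia 1 to 3 and 13 without 4 to 7, where 3.81% and 12.7% of all genes were lower. These 3 shares are the background for the lower counts of every list below. For higher counts the shares are 4.76% with all 7, 3.38% without 1 to 3 and 12% without 4 to 7. For kept members of a list the background is 1214 of 19854 genes. For members called in hypoxia and by hypoxia but not in normoxia it is 734 of 19854. The matrix count ran between 7 and 11 with single libraries left out. Between knockouts and controls 3 were higher and 2 lower in hypoxia, 9 were higher and none lower in normoxia, and hypoxia in controls gave no call. Fibrillar collagens fell as well: Col3a1 had 3.33, 5.21 and 9.01 CPM in knockout hypoxia and 19.4, 8.75, 30.6 and 10.1 CPM in knockout normoxia (log2 fold change -1.59 ± 0.33, adjusted p = 0.00649), and Col1a1 had 17.8, 21.5 and 38.7 CPM and 69.3, 40.8, 81.5 and 45.3 CPM in the same order (-1.20 ± 0.24, adjusted p = 0.00607). The Col3a1 groups overlapped and the Col1a1 groups did not.

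Endothelial and clotting genes fell in part. Of 14 coagulation and fibrinolysis genes, 6 fell and none rose (median -0.59; 3 without knockout hypoxia 1 to 3, 5 without 4 to 7, 4 to 7 with single libraries left out). Between knockouts and controls 3 were higher and 2 lower in hypoxia, and 6 were higher in normoxia. Vwf, the platelet-binding glycoprotein of endothelium, had 1.97, 4.67 and 6.67 CPM in knockout hypoxia against 53.5, 5.13, 31.9 and 8.71 CPM in knockout normoxia, with 1.11, 1.10, 3.96 and 2.13 CPM in control hypoxia and 0.934, 1.73, 0.786 and 3.19 CPM in control normoxia. Normoxic knockouts 1 and 3 were far above the rest and replicate 2 lay within the hypoxic range. Its log2 fold change was -2.56 ± 0.53 (adjusted p = 0.00691), and -2.09 without knockout hypoxia 4 to 7, where it was not called (adjusted p = 0.0556). Plat, the tissue plasminogen activator, changed by -0.65 ± 0.16 (adjusted p = 0.014; 0.0736 without knockout hypoxia 1 to 3) and F2r, a thrombin receptor, by -0.77 ± 0.17 (adjusted p = 0.0104). Thbd, the thrombin-binding anticoagulant receptor, changed by -1.01 ± 0.25 (adjusted p = 0.0157), and by -0.73 without knockout normoxia 3, where the adjusted p was 0.073, and by -0.87 without knockout hypoxia 1 to 3 (adjusted p = 0.0966). Among 13 endothelial markers 6 fell and none rose (median -0.82), with 4 lower without knockout hypoxia 1 to 3 and 3 lower without 4 to 7; leaving out knockout hypoxia 1, 3, 6 or 7 or knockout normoxia 1, 3 or 4 left 3. Cdh5, the endothelial cadherin, had 5.10, 8.09 and 9.36 CPM in knockout hypoxia against 20.1, 11.6, 22.5 and 14.4 CPM in knockout normoxia, without overlap, and 6.88, 7.22, 11.2 and 6.09 CPM in control hypoxia against 4.93, 9.72, 8.41 and 10.9 CPM in control normoxia. Its change was -1.17 ± 0.22 (adjusted p = 0.00492), with a call in all 3 fits.

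The endothelial marker sum itself was 101 to 145 CPM in knockout hypoxia, 234 to 312 CPM in knockout normoxia, 182 to 297 CPM in control hypoxia and 199 to 309 CPM in control normoxia, and no marker of the list was at 0 in all knockouts. Mfsd2a and Slc2a1, whose levels are given with each gene below, belong to this list and make up much of its sum. Mural cell markers summed to 168 to 266 CPM in knockout hypoxia and to 306 to 351 CPM in knockout normoxia, and 2 of 10 were called, both lower, with 2 lower without 4 to 7 and none called without 1 to 3. The part of endothelial or mural cell content in the matrix and clotting results was not tested. Mrc1 and Cd163, scavenger receptors of macrophages at brain borders, were the 2 of 8 tested border macrophage and leukocyte markers called, and both were called lower in all 3 fits. The levels of Mrc1 were 3.72, 4.09 and 6.28 CPM in knockout hypoxia and 10.6, 7.42, 10.3 and 6.84 CPM in knockout normoxia (-0.99 ± 0.20, adjusted p = 0.00601), and Cd163 changed by -0.88 ± 0.19 (adjusted p = 0.00853); in neither gene did the groups overlap. Cmklr1, a receptor for the chemoattractant chemerin, had 1.69, 2.05 and 2.65 CPM in knockout hypoxia against 5.83, 4.84, 8.73 and 5.59 CPM in knockout normoxia, and 1.97, 1.53, 2.32 and 1.09 CPM in control hypoxia against 1.90, 2.61, 2.23 and 2.54 CPM in control normoxia. Hypoxic knockouts lay within or just above the range of controls. The change was -1.52 ± 0.19 (adjusted p = 0.000268), against 0.33 ± 0.20 for knockouts over controls in hypoxia (adjusted p = 0.245) and 1.43 ± 0.22 in normoxia (adjusted p = 0.000681).

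**Figure D3:**
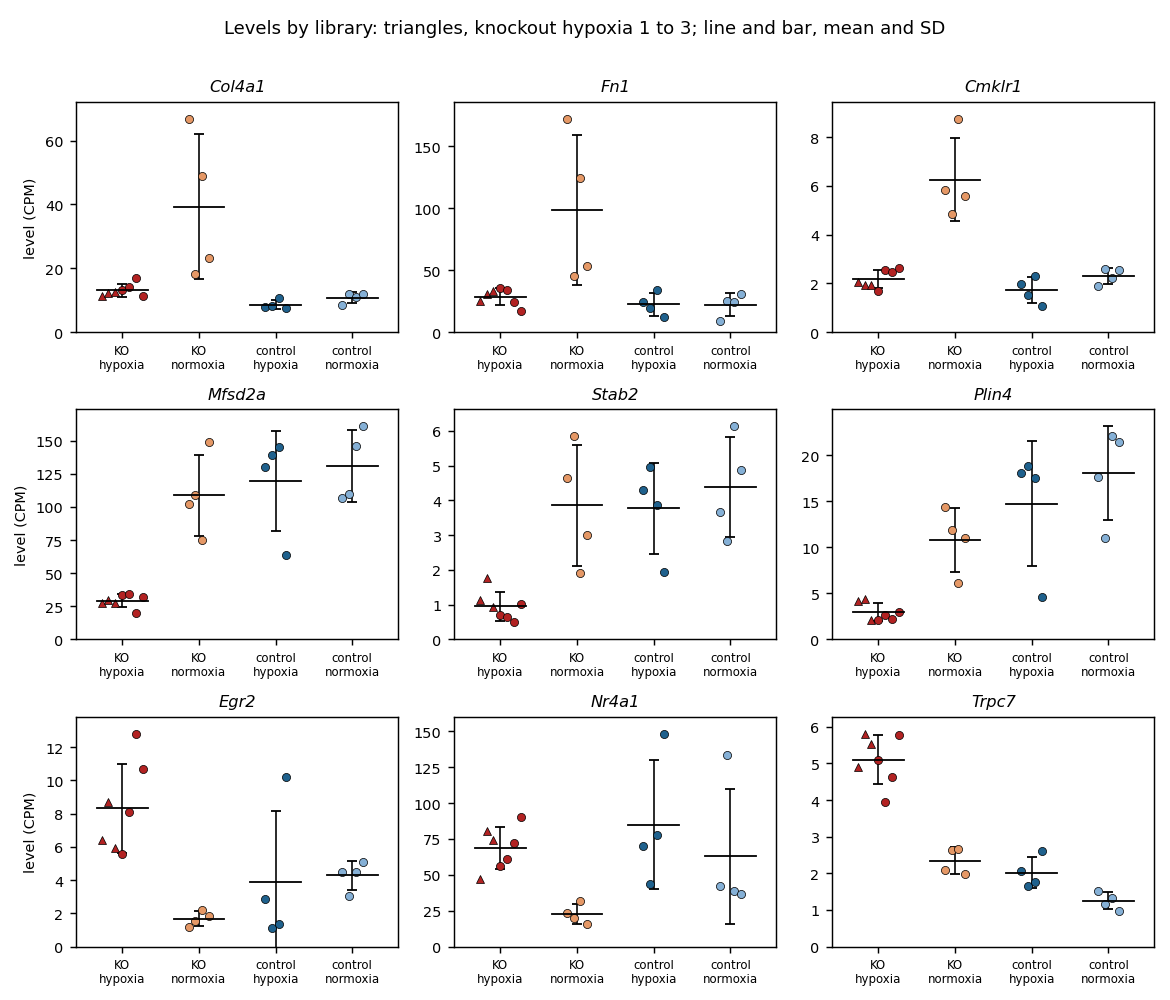
Level in CPM (linear axis from 0) of 9 genes in every library of knockout hypoxia, knockout normoxia, control hypoxia and control normoxia; the line and bar are the mean and SD, cut at 0, and triangles are knockout hypoxia 1 to 3. The top row shows Col4a1, Fn1 and Cmklr1, which fell, the middle row Mfsd2a, Stab2 and Plin4, which lay below all 4 normoxic knockouts in all 7 hypoxic knockouts, and the bottom row 3 genes that rose.

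Growth factor signalling genes of the vessel wall had calls that rested on few libraries. Of 18 VEGF and angiopoietin genes, 5 fell and none rose, with 1 lower and 1 higher without knockout hypoxia 1 to 3, 5 lower without 4 to 7, and 1 to 3 lower when any of knockout hypoxia 1, 2, 3, 6 or 7 or knockout normoxia 1, 3 or 4 was left out. Vegfa, the main angiogenic ligand and a hypoxia-inducible factor target, had 74.1, 73.6 and 80.3 CPM in knockout hypoxia 1 to 3, 184, 187, 180.0 and 187 CPM in knockout hypoxia 4 to 7 and 116, 103, 167 and 116 CPM in knockout normoxia. The first set lay below every normoxic knockout and the second above every one. With all 7 the log2 fold change was 0.14 ± 0.28 (adjusted p = 0.792), without 4 to 7 it was -0.71 (adjusted p = 0.0181) and without 1 to 3 it was 0.56 (adjusted p = 0.0671). The 5 members called were the receptors Flt1, Kdr, Tie1 and Nrp2 and the ligand Angpt2, and none of them, Kdr included, was called in all 3 fits. Of these Flt1 and Angpt2 were not called in either smaller fit, nor Nrp2 without knockout hypoxia 1 to 3 or Tie1 without 4 to 7. Tie1 had an adjusted p of 0.214 without knockout normoxia 1.

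Reactive astrocyte genes were in part kept. Gfap, the astrocyte intermediate filament protein, had 9681, 12267 and 13380.0 CPM in knockout hypoxia, 10628, 10625, 13651 and 10904 CPM in knockout normoxia, 5902, 6494, 5874 and 5332 CPM in control hypoxia and 5274, 6624, 5587 and 4962 CPM in control normoxia. Vim, another intermediate filament gene, had 576, 619.6 and 749.7 CPM, 616, 487, 908 and 614 CPM, 279, 222, 261 and 224 CPM and 218, 235, 262 and 274 CPM in the same order. For both genes every knockout library exceeded every control library and the knockout groups overlapped. The log2 fold changes by hypoxia in knockouts were 0.05 ± 0.11 for Gfap (adjusted p = 0.826) and -0.06 ± 0.13 for Vim (adjusted p = 0.81). Among 13 pan-reactive astrocyte genes 6 were kept, against 1214 of 19854 over all genes. In hypoxia 6 were higher in knockouts than in controls, and in normoxia 11. Within knockouts 4 fell and none rose (median -0.56), with 1 lower without knockout hypoxia 1 to 3, 3 lower without 4 to 7 and 2 lower without knockout normoxia 3. These were Steap4, Cp, Osmr and Hspb1. Of these, Steap4 was not called without knockout hypoxia 4 to 7 (adjusted p = 0.0568), and Cp and Osmr were not called without 1 to 3 (0.0595 and 0.0694). Hspb1 was called in neither fit (0.119 without 4 to 7 and 0.0513 without 1 to 3). Osmr, the oncostatin M receptor, had 11.4, 19.6 and 23.9 CPM in knockout hypoxia, 30.6, 24.8, 50.0 and 26.0 CPM in knockout normoxia, 9.92, 11.6, 12.2 and 10.7 CPM in control hypoxia and 9.77, 12.8, 15.5 and 18.1 CPM in control normoxia (-0.86 ± 0.22, adjusted p = 0.017; -0.58 and 0.0823 without knockout normoxia 3, which also ended the call of the chaperone gene Hspb1). It remained above controls in hypoxia (0.71 ± 0.23, adjusted p = 0.0375). Cp, the iron oxidase ceruloplasmin, changed by -0.92 ± 0.23 (adjusted p = 0.0159) and lay at 0.04 ± 0.23 between knockouts and controls in hypoxia (adjusted p = 0.923).

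The kept genes named here for their small adjusted p values had no call between the oxygen levels in knockouts. Nes, which encodes the progenitor filament protein nestin, had 17.4, 22.1 and 26.4 CPM in knockout hypoxia, 21.6, 16.2, 23.2 and 18.7 CPM in knockout normoxia, 4.21, 3.44, 4.93 and 2.69 CPM in control hypoxia and 2.57, 4.77, 3.07 and 3.39 CPM in control normoxia. Knockouts over controls gave 2.57 ± 0.19 in hypoxia and 2.53 ± 0.20 in normoxia (adjusted p = 8.59e-07 and 3.08e-06), and hypoxia in knockouts 0.18 ± 0.17 (adjusted p = 0.517). Eda2r, a receptor of the tumour necrosis factor family and a p53 target, had 4.19, 6.41 and 8.36 CPM in knockout hypoxia, 5.25, 2.30, 7.59 and 7.27 CPM in knockout normoxia, 0.31, 0.666, 0.415 and 0.475 CPM in control hypoxia and 0.444, 0.658, 0.674 and 0.538 CPM in control normoxia. Every knockout library of Nes and Eda2r lay above every control library. The same held for Gadl1, an amino acid decarboxylase gene, and for Pdyn, which encodes opioid peptide precursors: their differences between knockouts and controls were 2.55 ± 0.21 and 1.56 ± 0.18 in hypoxia and 2.03 ± 0.22 and 1.89 ± 0.20 in normoxia. Glycam1 and Hist1h4h, a histone H4 gene with near-identical copies whose counts are uncertain, gave 2.12 ± 0.26 and 1.52 ± 0.14 in hypoxia and 2.95 ± 0.29 and 1.35 ± 0.15 in normoxia. Ptgs2, the inducible prostaglandin synthase, and Cx3cl1, the chemokine fractalkine, were also kept, with changes by hypoxia of 0.13 ± 0.28 and 0.18 ± 0.30 (adjusted p = 0.807 and 0.747).

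**Figure D4:**
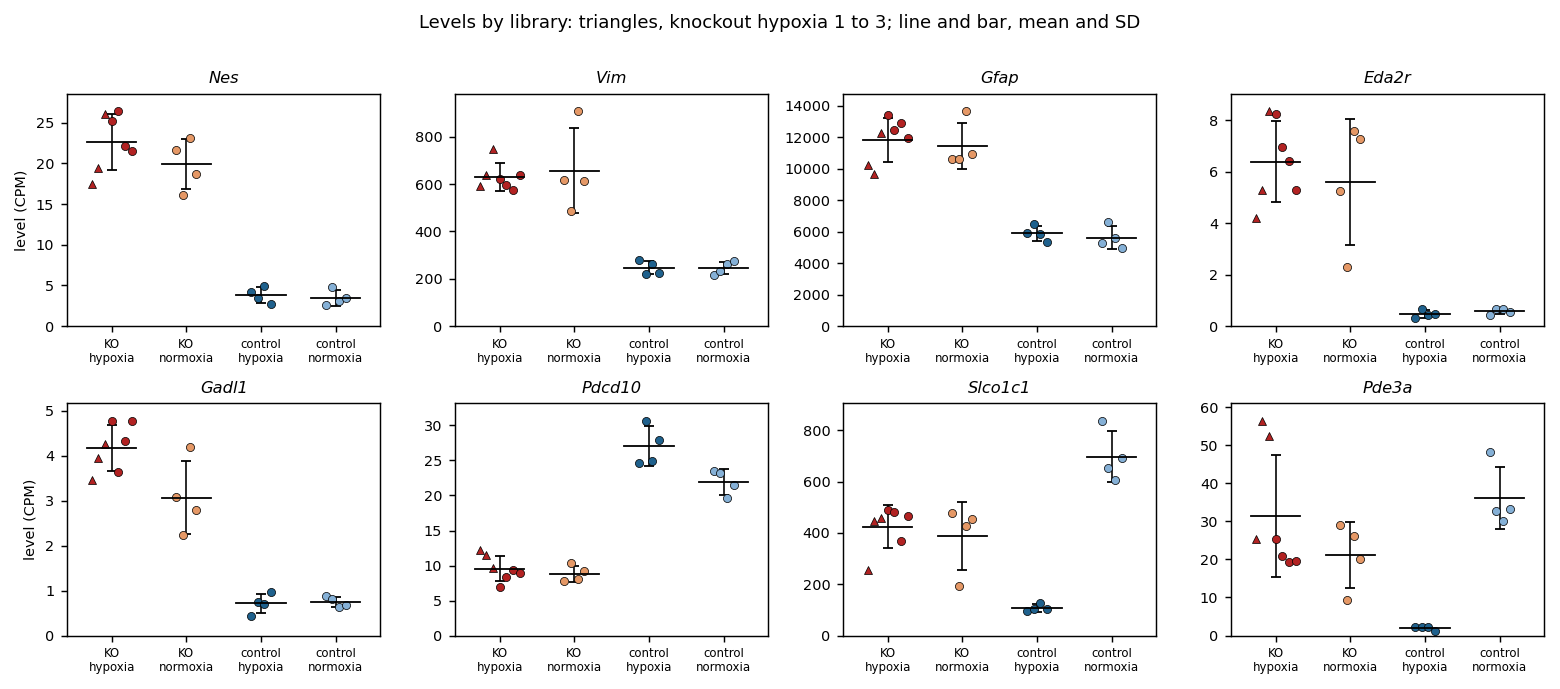
Level in CPM (linear axis from 0) of 8 genes in every library of knockout hypoxia, knockout normoxia, control hypoxia and control normoxia; the line and bar are the mean and SD, and triangles are knockout hypoxia 1 to 3. Nes, Vim, Gfap, Eda2r and Gadl1 are higher in all knockouts than in all controls, Pdcd10 is lower, and Slco1c1 and Pde3a are lowest in the 4 hypoxic controls.

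Genes of the p53 response, the damage pathway that restrains the cell cycle, rose in part. Of 14, 11 were higher and 1 lower in knockouts than in controls in hypoxia, 7 were higher and 1 lower in normoxia, and 8 were kept. Within knockouts 4 rose and none fell (median 0.28; 3 higher without knockout hypoxia 1 to 3, 4 without 4 to 7, and 2 without knockout normoxia 1 or 2). Sesn2, which encodes a stress-induced inhibitor of growth signalling, had 49.3, 62.8 and 69.4 CPM in knockout hypoxia against 43.4, 39.8, 48.9 and 47.8 CPM in knockout normoxia, without overlap, and 44.4, 39.4, 36.2 and 34.5 CPM in control hypoxia against 38.8, 44.6, 39.6 and 39.8 CPM in control normoxia. Its change was 0.44 ± 0.09 (adjusted p = 0.00818). Mdm2, the ubiquitin ligase that holds p53 in check, changed by 0.29 ± 0.07 (adjusted p = 0.0101) and was called higher in all 3 fits. Aen, a p53-induced nuclease gene, changed by 0.34 ± 0.09 (adjusted p = 0.0217; 0.0736 and 0.0792 without knockout normoxia 1 and 2), and Bax, a pore-forming death effector, by 0.34 ± 0.10 (adjusted p = 0.034; 0.0565 and 0.0623 without knockout hypoxia 1 and 3, 0.115 and 0.122 without knockout normoxia 1 and 2; 0.0659 without knockout hypoxia 1 to 3 and 0.0588 without 4 to 7). Cell cycle genes had 1 call among 16, Cdk1, which was lost without any of 13 single libraries. Without 4 to 7 there were 4 higher and without 1 to 3 none was called.

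Among the differences seen in hypoxia and not in normoxia was that of Mfsd2a, the transporter that brings lysolipids with docosahexaenoic acid across the blood-brain barrier. It had 19.9, 29.6 and 34.3 CPM in knockout hypoxia against 102, 109, 75.2 and 149 CPM in knockout normoxia, and 129.9, 139, 145 and 63.5 CPM in control hypoxia against 107, 109.5, 146 and 161 CPM in control normoxia. Hypoxic knockouts lay below every other library. Hypoxia in knockouts gave -1.90 ± 0.21 (adjusted p = 0.000133), with -1.86 without 1 to 3 and -1.94 without 4 to 7; knockouts over controls gave -2.03 ± 0.21 in hypoxia (adjusted p = 7.56e-06) and -0.27 ± 0.24 in normoxia (adjusted p = 0.5). The interaction was -1.77 ± 0.32 (adjusted p = 0.121), past no threshold. Stab2, a scavenger receptor for hyaluronan, had 0.497, 0.937 and 1.77 CPM in knockout hypoxia and 4.64, 5.85, 1.92 and 3.01 CPM in knockout normoxia (-2.0 ± 0.33, adjusted p = 0.0029), against 4.29, 4.96, 3.87 and 1.93 CPM in control hypoxia and 3.67, 2.82, 6.12 and 4.88 CPM in control normoxia. Plin4, a lipid droplet coat protein gene, had 2.06, 2.64 and 4.39 CPM in knockout hypoxia and 14.4, 11.8, 6.08 and 10.9 CPM in knockout normoxia (-1.88 ± 0.32, adjusted p = 0.00325). In Stab2 and Plin4 the knockout groups did not overlap, and knockouts were lower than controls in hypoxia (-1.97 ± 0.33 and -2.33 ± 0.32; adjusted p = 0.000763 and 0.000141) and not called in normoxia. Tmem82 fell as well, with 0.79, 1.20 and 1.32 CPM in knockout hypoxia and 2.73, 3.55, 2.25 and 4.22 CPM in knockout normoxia, and it fell in controls as well, with 1.55, 1.23, 1.71 and 1.28 CPM in control hypoxia and 2.97, 3.80, 3.41 and 3.10 CPM in control normoxia (-1.20 ± 0.19, adjusted p = 0.0158); 10 genes were called in 1 direction in both genotypes.

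Part of the astrocyte-homeostatic genes fell in hypoxic knockouts. Of 16, 8 were lower and none higher (median -0.59, with 7.77% of all genes lower), with 6 lower without knockout hypoxia 1 to 3, 14 without 4 to 7 and 5 without knockout normoxia 2. Of these 8, 6 also were lower in knockouts than in controls in hypoxia with no call in normoxia. Gjb2 and Gjb6 encode the connexins 26 and 30 of astrocyte gap junctions. Gjb2 had 18.7, 23.2 and 34.2 CPM in knockout hypoxia against 41.5, 56.0, 63.4 and 60.3 CPM in knockout normoxia, and 45.3, 45.2, 61.7 and 43.9 CPM in control hypoxia against 41.8, 58.5, 58.9 and 58.7 CPM in control normoxia. Gjb6 had 131, 159.9 and 225 CPM in knockout hypoxia and 329.8, 382, 238 and 393 CPM in knockout normoxia. In both genes each hypoxic knockout was below each normoxic knockout, with changes of -1.14 ± 0.16 and -0.91 ± 0.17 (adjusted p = 0.000937 and 0.00396). Aldh1l1, the folate enzyme whose promoter drives the ribosomal tag, changed by -0.55 ± 0.11 (adjusted p = 0.00588), with 402, 409.7 and 397 CPM in knockout hypoxia 1 to 3, 595, 560.4, 431 and 594 CPM in knockout hypoxia 4 to 7 and 664, 791, 683 and 708 CPM in knockout normoxia. The lowest levels of Aldh1l1 were in knockout hypoxia 1 to 3, which also had the most neuronal marker RNA, and the part of astrocyte yield in these falls was not tested. Among the 12 astrocyte markers 5 fell and none rose, with 9 lower without 4 to 7, 3 without 1 to 3, and 2, 1 and 3 without knockout normoxia 1, 2 and 4.

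Of 21 cholesterol synthesis genes, 12 fell and none rose (median -0.41, all 21 below 0, with 7.77% of all genes lower), with 7 lower without knockout hypoxia 1 to 3, 18 without 4 to 7 and 7 without knockout normoxia 1. In hypoxia 18 were lower in knockouts than in controls, in normoxia 4, and in controls hypoxia gave no call; 4 were kept and 9 were called in hypoxia and by hypoxia but not in normoxia. Msmo1, a sterol methyl oxidase gene, had 65.5, 104 and 147 CPM in knockout hypoxia and 163, 189, 180.1 and 178 CPM in knockout normoxia, against 219, 249, 261 and 237 CPM in control hypoxia and 172, 194, 210.2 and 235 CPM in control normoxia (-0.77 ± 0.17, adjusted p = 0.00848). Sqle, the squalene epoxidase, changed by -0.54 ± 0.12 (adjusted p = 0.00961) and Pmvk, the phosphomevalonate kinase, by -0.52 ± 0.11 (adjusted p = 0.00769). In Msmo1 and Sqle the hypoxic knockouts lay below all normoxic knockouts, in Pmvk the groups overlapped, and all 3 genes were called lower in each fit.

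**Figure D5:**
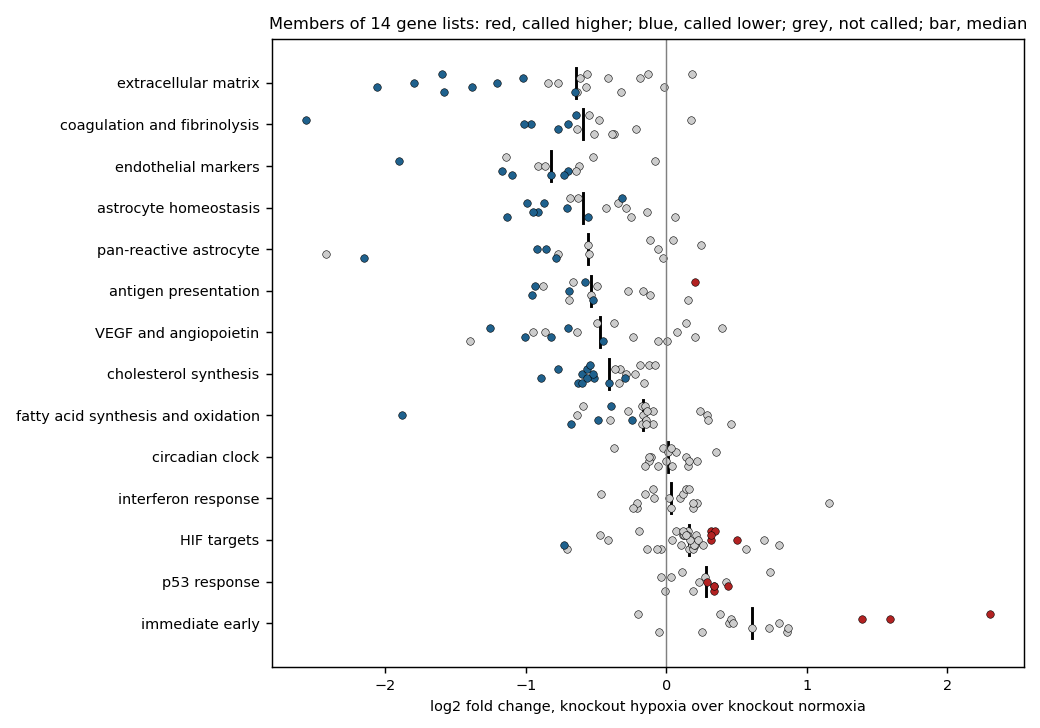
Log2 fold change of knockout hypoxia over knockout normoxia (x axis) for each tested member of 14 gene lists (rows), with the list's median as a bar. Members called higher are red, lower blue and not called grey. Matrix, clotting, endothelial, astrocyte-homeostatic, pan-reactive, antigen presentation, VEGF and angiopoietin, cholesterol and fatty acid genes lie mostly left of 0. Targets of hypoxia-inducible factors, p53-response and immediate early genes lie mostly right of it. Circadian clock and interferon genes lie on both sides.

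Targets of hypoxia-inducible factors gave small changes. Of 34 tested, 5 rose and 1 fell (median 0.16), with 6 higher and 1 lower without knockout hypoxia 1 to 3, 8 higher and 4 lower without 4 to 7, and 3 higher without knockout normoxia 1 or 4. Over all genes 4.76% were called higher. In hypoxia 16 were higher and 3 lower in knockouts than in controls, in normoxia 9 were higher and 3 lower, and in controls hypoxia called none. The 5 were Pdk1, Pfkl and Pgk1, which steer or carry out glycolysis, Ddit4, an inhibitor of growth signalling, and Mxi1, a repressor that opposes Myc; the last 2 were named after their values were seen. The 1 that fell was Slc2a1, the glucose transporter of brain capillaries and astrocytes. Promoters of Pgk1, Ddit4 and Slc2a1 are shown because they bear the core letters ACGTG that these factors bind, in capitals on either strand, though the first pair rose and the last fell. They are RefSeq windows on GRCm38.p6, at chrX:106186850-106187149 (plus strand), chr10:59951721-59952020 (minus strand) and chr4:119108495-119108794 (plus strand).
Pgk1: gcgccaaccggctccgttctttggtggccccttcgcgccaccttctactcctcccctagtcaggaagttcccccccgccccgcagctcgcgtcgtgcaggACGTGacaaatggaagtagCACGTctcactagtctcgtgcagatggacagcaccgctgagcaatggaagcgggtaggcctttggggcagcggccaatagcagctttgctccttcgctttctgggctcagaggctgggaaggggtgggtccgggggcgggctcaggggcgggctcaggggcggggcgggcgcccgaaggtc
Ddit4: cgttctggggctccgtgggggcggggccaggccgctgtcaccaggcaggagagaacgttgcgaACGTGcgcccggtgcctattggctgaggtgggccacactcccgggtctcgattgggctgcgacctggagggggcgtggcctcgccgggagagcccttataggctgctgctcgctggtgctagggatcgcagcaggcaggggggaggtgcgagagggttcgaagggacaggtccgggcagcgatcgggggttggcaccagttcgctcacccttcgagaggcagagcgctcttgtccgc
Slc2a1: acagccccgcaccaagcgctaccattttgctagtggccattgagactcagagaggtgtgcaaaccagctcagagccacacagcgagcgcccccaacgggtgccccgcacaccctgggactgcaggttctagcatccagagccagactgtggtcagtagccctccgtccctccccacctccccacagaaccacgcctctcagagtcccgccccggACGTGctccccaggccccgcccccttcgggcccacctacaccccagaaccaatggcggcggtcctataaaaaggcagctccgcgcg
ACGTG was searched on both strands. It occurs in 22 of the 31 tested list genes with a promoter in the table (71%), in 3 of the 5 that rose (60%) and in 18 of the 25 with no call (72%), against 5886 of 27025 genes (21.8%) and 19.6% of 32851 windows of this length. A match is a description of these letters and no evidence of binding.

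Pdk1, the kinase that diverts pyruvate from mitochondria, had 71.2, 79.6 and 83.2 CPM in knockout hypoxia against 58.4, 58.7, 72.0 and 58.2 CPM in knockout normoxia, and 50.1, 45.1, 47.9 and 49.9 CPM in control hypoxia against 46.5, 42.8, 47.7 and 46.2 CPM in control normoxia. Every knockout library lay above every control library, and the knockout groups overlapped through knockout normoxia 3 and knockout hypoxia 7. Its change was 0.35 ± 0.07 (adjusted p = 0.00455). Pfkl, a phosphofructokinase, had 365, 371 and 392 CPM in knockout hypoxia and 305, 277, 346 and 282 CPM in knockout normoxia, without overlap (0.32 ± 0.07, adjusted p = 0.00668). Pgk1, phosphoglycerate kinase, changed by 0.32 ± 0.08 (adjusted p = 0.0165; 0.0539 and 0.0594 without knockout normoxia 1 and 2; 0.0829 without knockout hypoxia 1 to 3, where the change was 0.23). Ddit4 had 135, 134 and 113 CPM in knockout hypoxia 1 to 3, 177, 166, 144 and 198 CPM in knockout hypoxia 4 to 7 and 97.8, 140.1, 86.2 and 106 CPM in knockout normoxia (0.51 ± 0.14, adjusted p = 0.0288). Its adjusted p was 0.0821, 0.0927 and 0.0617 without knockout normoxia 1, 3 and 4, and 0.19 without knockout hypoxia 4 to 7, where that of Mxi1 was 0.388. Mxi1 changed by 0.32 ± 0.10 (adjusted p = 0.0442); its call was lost when any 1 library other than knockout hypoxia 1, 2 or 3 or knockout normoxia 2 was left out, with adjusted p values up to 0.142. Slc2a1 had 43.5, 61.1 and 75.5 CPM in knockout hypoxia and 119, 91.5, 95.3 and 108 CPM in knockout normoxia, without overlap, against 75.9, 88.8, 109 and 96.6 CPM in control hypoxia and 75.7, 83.5, 101 and 108 CPM in control normoxia (-0.73 ± 0.14, adjusted p = 0.00505). Epas1, the hypoxia-inducible factor subunit most abundant in endothelium and glia, was the 1 of 10 oxygen-sensing genes called (1 higher and 1 lower in each of the fits without 1 to 3 and without 4 to 7), at -0.64 ± 0.13 (adjusted p = 0.00675), with 424, 725 and 878 CPM in knockout hypoxia, 1116, 1067, 962 and 1006 CPM in knockout normoxia, 715, 699, 759.6 and 703 CPM in control hypoxia and 907, 1040.2, 988 and 893 CPM in control normoxia.

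Immediate early genes, which answer stimuli within minutes, rose in part. Of 15, 3 rose and none fell (median 0.61; 3 higher without knockout hypoxia 1 to 3, 7 without 4 to 7, 5 without control hypoxia 6). Egr2, a zinc finger transcription factor, had 5.54, 8.09 and 12.8 CPM in knockout hypoxia against 1.19, 1.52, 2.21 and 1.82 CPM in knockout normoxia, and 2.87, 1.14, 1.33 and 10.2 CPM in control hypoxia against 4.47, 3.04, 4.49 and 5.10 CPM in control normoxia. Knockout groups did not overlap, normoxic controls lay between them, and control hypoxia 6 stood above the other hypoxic controls. The change was 2.30 ± 0.48 (adjusted p = 0.00747). Nr4a1, an orphan nuclear receptor gene, had 46.8, 72.4 and 90.1 CPM in knockout hypoxia and 23.7, 19.8, 32.0 and 15.6 CPM in knockout normoxia, against 70.4, 43.7, 77.7 and 148 CPM in control hypoxia and 42.4, 134, 39.0 and 36.8 CPM in control normoxia. It had been lower in knockouts than in controls in normoxia (-1.47 ± 0.40, adjusted p = 0.0248), rose by hypoxia (1.59 ± 0.37, adjusted p = 0.0126) and had no call between genotypes in hypoxia (-0.31 ± 0.34, adjusted p = 0.561). Egr1 changed by 1.39 ± 0.34 (adjusted p = 0.0148), with 211, 337 and 307 CPM in knockout hypoxia 1 to 3, 114, 150.3, 255 and 203 CPM in knockout hypoxia 4 to 7 and 106, 74.1, 101 and 63.0 CPM in knockout normoxia; without 1 to 3 it was not called (1.07, adjusted p = 0.0846).

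Other rises called in all 3 fits had varied functions. Kalrn, a guanine exchange factor of synapses, had 899, 944 and 1284 CPM in knockout hypoxia 1 to 3, 535, 669.6, 461 and 329.9 CPM in knockout hypoxia 4 to 7 and 328, 225, 217 and 213 CPM in knockout normoxia (1.58 ± 0.32, adjusted p = 0.0065). For Kalrn, knockouts over controls in hypoxia gave 0.04 ± 0.30 (edgeR adjusted p = 0.936). Hypoxia in controls gave 0.70 ± 0.34 (edgeR adjusted p = 0.572). Trpc7, a cation channel gene, had 3.95, 5.09 and 5.81 CPM in knockout hypoxia and 2.09, 2.64, 2.67 and 1.99 CPM in knockout normoxia (1.12 ± 0.16, adjusted p = 0.000962), and it was kept as well, at 1.34 ± 0.16 over controls in hypoxia and 0.91 ± 0.18 in normoxia. Trpc7 thus moved along with the knockout difference, as did Ckap2, a spindle protein gene (1.02 ± 0.24, adjusted p = 0.0122), and Me1, the cytosolic malic enzyme (0.45 ± 0.07, adjusted p = 0.00168). Lrguk (1.30 ± 0.28), the homeobox gene Dlx5 (1.14 ± 0.25), the nucleoporin gene Nup43 (0.93 ± 0.18) and the thioesterase gene Them4 (0.83 ± 0.15) rose with adjusted p values of 0.00853, 0.00954, 0.00456 and 0.00396. None of these had a call between knockouts and controls in hypoxia. Lrguk was lower in knockouts than in controls in normoxia (-1.23 ± 0.31, edgeR adjusted p = 0.0159), so hypoxia moved it against that difference. Rpl37a, a ribosomal protein gene, was called at 0.84 ± 0.20 (adjusted p = 0.012) with overlapping groups, and its level is uncertain because it has near-identical copies. Hypoxia in controls changed Rpl37a by 0.75 ± 0.22 (edgeR adjusted p = 0.254). Pclo, a scaffold of presynaptic active zones, was among the 10 largest falls, with 9.28, 14.1 and 21.3 CPM in knockout hypoxia and 79.5, 30.4, 42.4 and 20.6 CPM in knockout normoxia (-1.63 ± 0.32, adjusted p = 0.00586); its groups overlapped through knockout normoxia 4.

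The only called interactions concerned Slco1c1, a thyroxine transporter whose promoter drives the Cre, and Pde3a, a cyclic nucleotide phosphodiesterase gene, which lie next to each other on chromosome 6 in the RefSeq annotation. Slco1c1 had 256, 457 and 491 CPM in knockout hypoxia, 476, 194, 426 and 456 CPM in knockout normoxia, 94.1, 103, 127 and 105 CPM in control hypoxia and 838, 654, 608 and 690.0 CPM in control normoxia. Pde3a had 19.4, 25.3 and 56.5 CPM in knockout hypoxia, 29.1, 9.45, 26.2 and 20 CPM in knockout normoxia, 2.30, 2.23, 2.35 and 1.27 CPM in control hypoxia and 48.3, 32.8, 30.0 and 33.3 CPM in control normoxia. Both genes were lowest in the 4 hypoxic controls and had no call between the oxygen levels in knockouts (0.13 ± 0.20 and 0.57 ± 0.33; adjusted p = 0.727 and 0.283). The interactions were 2.83 ± 0.31 and 4.71 ± 0.54 (adjusted p = 0.000652 and 0.000652), and hypoxia in controls gave -2.70 ± 0.24 and -4.15 ± 0.43 (adjusted p = 2.34e-05 and 0.000133).

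Thyroid hormone genes had 3 of 9 members lower and none higher (median -0.09; 2 lower without knockout hypoxia 1 to 3, 3 lower and 2 higher without 4 to 7). Dio2, the deiodinase that activates thyroxine in astrocytes, had 191, 203 and 277 CPM in knockout hypoxia against 359, 411, 282 and 398 CPM in knockout normoxia, and 523, 537, 529 and 480.0 CPM in control hypoxia against 486, 574, 481 and 451 CPM in control normoxia. It was already lower in normoxic knockouts than in normoxic controls and moved further from controls in hypoxia, with -0.67 ± 0.12 by hypoxia (adjusted p = 0.00307) and -1.19 ± 0.11 and -0.46 ± 0.13 for knockouts over controls in hypoxia and normoxia (adjusted p = 4.42e-06 and 0.0306). Hr, a corepressor and thyroid hormone target, changed by -0.56 ± 0.12 (adjusted p = 0.00966) and was kept. In the glucocorticoid list 1 of 15 rose and 5 fell (2 and 4 without knockout hypoxia 1 to 3, 3 and 4 without 4 to 7), among them Plin4 and the metallothioneins Mt1 and Mt2 (-0.47 ± 0.11 and -0.57 ± 0.11; adjusted p = 0.0116 and 0.00455), which bind zinc and copper, and Sult1a1, a sulfotransferase (-1.25 ± 0.25, adjusted p = 0.00626).

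Most immune lists had few calls, antigen presentation had more, and the medians of complement and antigen presentation were negative. Complement had 2 of 12 genes lower and none higher (median -0.56, all 12 below 0), with 1 lower without knockout hypoxia 1 to 3 and 2 without 4 to 7, and 5 of 12 were kept higher in knockouts. Among the lower pair was Serping1, an inhibitor of the cascade (-0.75 ± 0.18, adjusted p = 0.0143; 0.0836 without 1 to 3). Antigen presentation had 5 of 15 genes lower and 1 higher (median -0.535), with 8 lower without knockout hypoxia 4 to 7 (median -0.868) and no call in either direction without 1 to 3 (median -0.379). Leaving out any of 9 single libraries left 2 or 3 lower. Microglial markers had no call among 10 with all 7 or in either smaller fit (median -0.15), and 5 were kept. Interferon response genes had none among 17 in any of the 3 fits (median 0.03), and chemokine genes none among 8 with all 7 (median 0.01) and 1 lower without 4 to 7. Of the neurotoxic reactive astrocyte list 3 of 11 genes fell (1 without 1 to 3, 3 without 4 to 7) and of the protective list 1 of 11 (none and 2). In the NF-kB list 1 of 15 genes fell (1 and 3), the endotoxin receptor gene Tlr4 (-0.61 ± 0.13, adjusted p = 0.00818). Iron genes had 3 of 12 lower (2 without 1 to 3; 3 lower and 2 higher without 4 to 7), with Tfrc, the transferrin receptor, at -0.71 ± 0.15 (adjusted p = 0.00649) and Slc11a2, a divalent metal transporter, at -0.55 ± 0.13 (adjusted p = 0.013).

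Most further lists held few calls with all 7 hypoxic knockouts. Some held more without knockout hypoxia 4 to 7, where calls over all genes were also more frequent. Fatty acid genes had more with all 7, at 5 of 22 lower (median -0.17), with 7.77% of all genes lower. They had 10 lower without 4 to 7 and 1 lower and 1 higher without 1 to 3. Leaving out any of 7 single knockout libraries left 1 to 3 lower. Antioxidant genes of the NRF2 list had 1 of 13 higher, Me1, and 1 lower, Gstm1, a glutathione transferase (-0.43 ± 0.09, adjusted p = 0.00643), with 1 higher and 4 lower without 4 to 7. Transforming growth factor targets had 2 of 16 lower, 9 without 4 to 7 and none without 1 to 3. Heat shock genes had 1 of 14 in each direction, 5 higher and 1 lower without 4 to 7 and no call without 1 to 3. Stress and unfolded protein genes had 2 of 18 in each direction, 1 higher and 4 lower without 4 to 7, and 2 higher without 1 to 3. KLF and ADAMTS genes had 1 of 13 lower (3 without 4 to 7, none without 1 to 3) and nuclear oxidative phosphorylation genes 1 of 20 (1 and 2). Circadian clock genes had none of 17 called with all 7 or without 1 to 3, and 4 lower and 1 higher without 4 to 7.

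Markers of other cells also moved with knockout hypoxia 1 to 3. Of 10 oligodendrocyte lineage markers 1 was lower with all 7, and none was called without 1 to 3. Without 4 to 7, 5 were higher and 1 lower. Of 6 erythroid genes tested none was called with all 7 or without 1 to 3, and 4 were higher without 4 to 7 (median 1.74). Between knockouts and controls 6 were higher in hypoxia and 5 in normoxia. Cerebellar genes had 1 of 7 lower with all 7, 1 higher and 3 lower without 4 to 7 and no call without 1 to 3. The choroid plexus and ependymal list (10 tested) and the Y-linked list (4) had no call in any of the 3 fits. The part of these cells' RNA in the results on knockout hypoxia 1 to 3 was not tested.

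The sets of hypoxic knockouts went opposite ways in mitochondrially encoded genes. None of the 13 was called with all 7 (median 1.63), all 13 were higher without knockout hypoxia 4 to 7 (median 2.75) and 10 were lower without 1 to 3 (median -1.47). The cytochrome b gene mt-Cytb had 48.5, 52.9 and 93.9 CPM in knockout hypoxia 1 to 3, 2.93, 2.49, 2.45 and 3.62 CPM in knockout hypoxia 4 to 7 and 14.3, 5.94, 6.60 and 5.46 CPM in knockout normoxia. The normoxic knockouts lay between the 2 sets without overlap. Its log2 fold change was 1.87 ± 0.89 with all 7 (adjusted p = 0.178), 3.02 without 4 to 7 (adjusted p = 3.47e-05) and -1.49 without 1 to 3 (adjusted p = 0.00953). Ccl21a, a lymphoid chemokine gene with near-identical copies, had 3.32, 4.02 and 3.88 CPM in knockout hypoxia 1 to 3, 0.0322, 0.0436, 0.0481 and 0 CPM in knockout hypoxia 4 to 7, 2.42, 2.56, 5.17 and 0.777 CPM in knockout normoxia, 0.0489, 0, 0 and 0 CPM in control hypoxia and 8.51, 3.74, 9.61 and 10.6 CPM in control normoxia. It was thus near 0 in knockout hypoxia 4 to 7 and in all hypoxic controls, and present in the other libraries. In all, 29 genes were called in opposite directions in the 2 sets. Snap25, a synaptic fusion protein and neuronal marker, had 1512, 1978 and 1955 CPM in knockout hypoxia 1 to 3, 410.1, 579, 998 and 595 CPM in knockout hypoxia 4 to 7 and 675, 371, 634 and 579 CPM in knockout normoxia; 4 of 10 neuronal markers were called higher without 4 to 7 and none with all 7 or without 1 to 3.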

How the data were processed

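The authors deposited a table of counts per gene for 19 libraries (55416 gene IDs, 52083 with a symbol) and a table of RPKM values that was not used. Per the submitters' processing notes, HISAT2, edgeR and GRCm39 were used; versions, the counting tool and its strand setting are not given in the sources used here, and nor is whether reads or read pairs were counted (66.04% of the counts from 2 to 21 were even). Per the design text, RNA with an integrity number above 8.0 was used. Per the labels, it was sequenced with a stranded mRNA kit. The design text speaks of astrocyte mRNA from tagged ribosomes and the sample text of brain tissue, and which RNA was counted is not settled here.

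Counts were filtered with filterByExpr, scaled by TMM and fitted in 1 edgeR 4.0.16 quasi-likelihood model (R 4.3.3) with a term for each of the 4 groups. A gene was called at a Benjamini-Hochberg adjusted p under 0.05 over all 19854 genes. Contrasts were hypoxia over normoxia within knockouts and within controls, knockouts over controls at each oxygen level, and their interaction. CPM are TMM-scaled counts, errors of fold changes are SE, and a list's median is over its tested members. Alternatives were RLE scaling, a stricter filter and no filter, DESeq2 1.42.0, and limma-voom with sample weights (limma 3.58.1). Others were knockouts alone, that fit with a replicate block, mitochondrial genes left out, and sets or single libraries left out. Among the sets were the 5 libraries with little Y-linked RNA, a set chosen after the data were seen. The pipeline was tested on simulated data.

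Named genes were the 10 largest rises and 10 largest falls called in all 3 fits (mean log2 CPM of at least 1), up to 4 members of each list by adjusted p, the 8 kept genes with the smallest p, the interaction genes, a few genes of prior interest and the 5 that differed most between the sets of hypoxic knockouts. The members and the 41 lists were chosen with earlier results of these data known, and only part of the genes so named are described. The classes of genes moved against the knockout difference or called by hypoxia and in hypoxia were defined after the data were seen. The deviations of same-numbered hypoxic and normoxic knockouts had correlations of mixed sign (0.07, -0.43, 0.23 and 0.33). Those of differently numbered ones ran from -0.50 to 0.55, so the numbers were not used to pair libraries. The closest replicates, knockout hypoxia 4 and 5, still differed beyond sampling noise and were counted separately.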

Additional observations from a re-analysis of the deposited data

Results flagged for a closer look

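In the 206 gene and group combinations whose levels are reported above, 16 single libraries stood apart from the rest of their group by Dixon's criterion; chance flags about 1 in 20 groups. In knockout hypoxia these were replicate 6 for Col4a2 (18 CPM), replicate 5 for Mdm2 (58.8 CPM) and Mrc1 (6.28 CPM), and replicate 3 for Vim (749.7 CPM), each the highest of its group. In knockout normoxia replicate 1 was highest for Cd163 (5.74 CPM), Kalrn (328 CPM) and mt-Cytb (14.3 CPM), replicate 3 for Gfap (13651 CPM) and Pdk1 (72.0 CPM), and replicate 4 for Rpl37a (3.20 CPM), while replicate 2 was lowest for Plat (26.0 CPM). In control hypoxia replicate 3 was highest for Ccl21a (0.0489 CPM) and replicate 5 for Gjb2 (61.7 CPM), and replicate 6 was lowest for Pde3a (1.27 CPM). In control normoxia replicate 1 was lowest for Gjb2 (41.8 CPM) and replicate 2 was highest for Nr4a1 (134 CPM).

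The oxygen contrast differed between knockouts and controls by the edgeR interaction term for Slco1c1 (log2 difference 2.83) and Pde3a (4.71), with the levels and adjusted p values given above. In both genes the 4 hypoxic controls stood below all other libraries.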

How the results depend on the processing

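The values that moved by over 1.5 times are given here by setting, and the cause was not tested. Without a filter on low counts 570 genes were higher in hypoxic knockouts, 808 knockout differences were kept, 188 had a hypoxia call against the normoxia call, 168 of them with no call in hypoxia, and 481 were called by hypoxia and in hypoxia but not in normoxia. DESeq2 gave 47 damped, 4 amplified and 57 added genes, 588 with a hypoxia call against the normoxia call and 488 of them with no call in hypoxia. With limma-voom and sample weights 1196 genes were called, 417 higher and 779 lower, with 222, 185 and 476 genes in the last 3 classes. Knockout libraries alone gave 945 calls, 232 higher and 713 lower. With the replicate number as a block in that fit there was 1 call, 0 higher and 1 lower, with 3795 genes at an unadjusted p under 0.05 in edgeR; the libraries share only a number. Without knockout hypoxia 1 to 3 there were 1428 calls, 757 of them lower, and 218 genes called by hypoxia and in hypoxia only; mt-Atp6, mt-Co2, mt-Cytb and mt-Nd2 reversed to -1.29, -1.75, -1.49 and -1.44. Without the 5 libraries with little Y-linked RNA (chosen after seeing the data, and leaving 5, 4, 3 and 2 libraries a group) there were 1106 calls, 392 higher and 714 lower, with 152 kept, 5 added, and 35, 27 and 232 in the last 3 classes. Without knockout hypoxia 4 to 7 there were 4892 calls, 2377 higher and 2515 lower, with 2106 kept, 179 damped, 126 amplified, 1324 added and 2709 called by hypoxia and in hypoxia only, and Vegfa reversed to -0.71.

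With single libraries left out, calls ranged from 1488 to 2719, higher genes from 505 to 1084, lower genes from 983 to 1663, kept differences from 637 to 1563, damped from 0 to 5, added from 1 to 18, calls against the normoxia call from 155 to 409, those with no call in hypoxia from 133 to 339, and calls by hypoxia and in hypoxia but not in normoxia from 354 to 1023. RLE scaling, the stricter filter and leaving out mitochondrial genes or knockout hypoxia 6 and 7 kept all these counts within 1.5 times. Of 95 named genes with a call, DESeq2 called all 95, limma-voom 67, knockouts alone 63 and the block 1.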

Other observations

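Gene families grouped by the start of their symbol, a grouping chosen after the data were seen, leaned in different directions between hypoxic and normoxic knockouts. Among 294 solute carriers (Slc), which move ions and metabolites across membranes, 4 were called higher and 68 lower (23.1%), against 7.77% lower over all genes by edgeR's adjusted p, and the median log2 fold change was -0.30. Among 41 collagens 1 was higher and 15 lower (36.6%), and among 11 laminins, which build basement membranes, 5 were lower and none higher. Of 28 integrins, the receptors for such matrix, 5 were lower and none higher. Of 219 transmembrane protein (Tmem) genes 6 were higher and 46 lower (21%).

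Some families of nuclear and cytosolic proteins had more members higher than lower. Of 82 cytosolic ribosomal protein genes 14 were higher and none lower (17.1%, against 4.76% higher over all genes), with a median of 0.25; many have near-identical copies, so their counts are uncertain. Of 370 zinc finger (Zfp) genes 29 were higher (7.84%) and 7 lower. Of 41 proteasome subunits 3 were higher (7.32%) and none lower, a share near the 4.76% over all genes. The medians had the same sign without knockout hypoxia 1 to 3 and without 4 to 7 in all 8 families (-0.26 and -0.38 for solute carriers, 0.23 and 0.29 for ribosomal proteins). Members of a family are not independent, and no test was made.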
